A study of Homo sapiens with 12 samples.

Results

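The MYC family loci are the genes of the 3 MYC transcription factors (MYC, MYCN and MYCL), of their partner MAX, of the antagonists MXD1, MXI1 and MNT, and of PVT1, a long noncoding RNA gene next to MYC. The 8 genes were taken from a list and not selected by a threshold on measured values, but earlier results of these data were known. Their accessible sites were the lines of the peak list whose summit lay inside a gene (RefSeq, GRCh38) or within 50 kb of it, and, for MYC and PVT1, anywhere on chromosome 8 from 126000000 to 129500000. This gave 178 summits in 154 intervals, out of 188019 summits in all. Of these, 115 summits lay in the chromosome 8 window and 63 at the other 6 genes.

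Open chromatin was mapped by ATAC-seq, whose transposase cuts and tags accessible DNA. HT1080 cells, an established human fibrosarcoma line, had migrated for 48 h in gels of rat tail collagen (type I). The gels held 1.7 mg/mL in the high group, 1.0 mg/mL in the medium group and 0.3 mg/mL in the low group, and each of the 3 groups had 4 of the 12 libraries. Every library, at each concentration, came from cells given the broad metalloproteinase inhibitor GM6001 at 20 µM. The analysed peak list was pooled over the series, so no value below belongs to one library or one concentration and none has a replicate. Differences between collagen concentrations at these loci were not analysed here.

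MYC, MYCN and MYCL proteins bind DNA only as dimers with MAX, at the E-box sequence, and activate genes of growth, ribosome production and metabolism. MXD1, MXI1 and MNT compete for MAX and recruit the SIN3 corepressor to the same kind of site. MYC is driven in different tissues by different sets of distant enhancers spread over the gene-poor region around it, and the PVT1 gene, which follows MYC in the same direction, contains several of them.

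Each summit has an enrichment, the authors' ratio of signal to local background, and a fragment pileup, the number of overlapping fragments recovered here from that ratio and the deposited p. The pileup carries an exact 95% Poisson interval that covers counting error only. The local background at a summit was never below 20.3 fragments, the genome-wide level, and was above it at 118 of the 178 summits. All 178 summits lay in intervals of at most 2108 bp. Their median enrichment was 5.02 and their median pileup 144, against 3.90 and 107 for all 112569 summits in intervals of at most 10 kb.

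The labelled cell type was checked against marker genes with a summit within 1000 bp of either gene end, a criterion met by 65.7% of 20037 protein-coding genes. Of 10 mesenchymal markers 8 had one, with enrichments from 6.64 to 15.1 (FN1) and a median of 9.53. COL1A1 and THY1 had none there, but inside these genes the enrichment reached 9.95 and 3.38. Of 8 epithelial markers 3 had one, with KRT8 at 12.7, EPCAM at 2.11 and KRT18 at 1.75. The KRT8 summit lay inside the neighbouring KRT18. CDH1 had none near its ends, but inside the gene the enrichment reached 12.5 and the pileup 398. Counts were 3 of 6 for blood, 1 of 4 for liver and 0 of 6 for neural markers. The blood markers with a site had 8.44 to 14.5, with a median of 10.2, and the liver marker had 10.6. Enrichment within 1000 bp of either end therefore did not separate mesenchymal from blood markers. The strongest blood sites lay near the lower coordinate of SPI1 and LCP1 and just past the upper coordinate of CD3E. This check did not separate gene starts from far ends, so it does not compare the promoters of these markers. CDKN2A and its neighbour CDKN2B, a region known to be deleted in HT1080, had 0 summits in the gene or within 50 kb, a range in which 96.3% of protein-coding genes had at least 1. MTAP, the third gene listed for that region, did have a summit near an end, with 13.1-fold enrichment and a pileup of 593.

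MYC, the most widely expressed of the 3 factors, had a modest site at its start. The gene spans chr8:127735434-127742951, and its lower coordinate is the start. The interval chr8:127735162-127736494 covered the start and held 2 summits. The first lay 95 bp before the start, with 4.64-fold enrichment and a pileup of 421. The other lay 0.739 kb after the start, with 4.98-fold enrichment and a pileup of 455 (414 to 499). The counting intervals of these 2 pileups overlapped. The local background at the start was raised to 90.5 fragments, 4.46 times the genome-wide level.

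Flanking sites of MYC were weaker in pileup, although one had the highest enrichment at the gene. A summit 1.25 kb before the start, near the upper coordinate of the lncRNA gene CASC11, had a pileup of 321. Another inside the gene, 2.37 kb after the start, had a pileup of 259 and an enrichment of 2.83. Just past the far end of MYC, at 218 bp, lay a summit with 7.64-fold enrichment and a pileup of 228 over a background of 29.0. Enrichment and pileup therefore ordered the 2 ends of MYC differently. Among the 13157 protein-coding genes with a summit near an end, 28.5% had a lower highest enrichment than MYC and 34.7% a lower highest pileup.

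The chromosome 8 window as a whole was not dense in summits. It held 32.9 summits per Mb, against 49.3 in the rest of chromosome 8 and 61.5 over the autosomes. With summits restricted to intervals of at most 10 kb, the values were 32.9, 30.5 and 36.7. Among 810 autosomal windows of the same length, 52.0% held fewer summits. Within the window the summits were uneven. Of 35 bins of 100 kb, 8 held 0 summits, the median bin held 3, and 4 neighbouring bins, from 35.4 kb before the MYC start to 365 kb after it, held 10 each. Before the MYC start lay 46 summits in 1735 kb and after it 69 in 1765 kb.

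**Figure D1:**
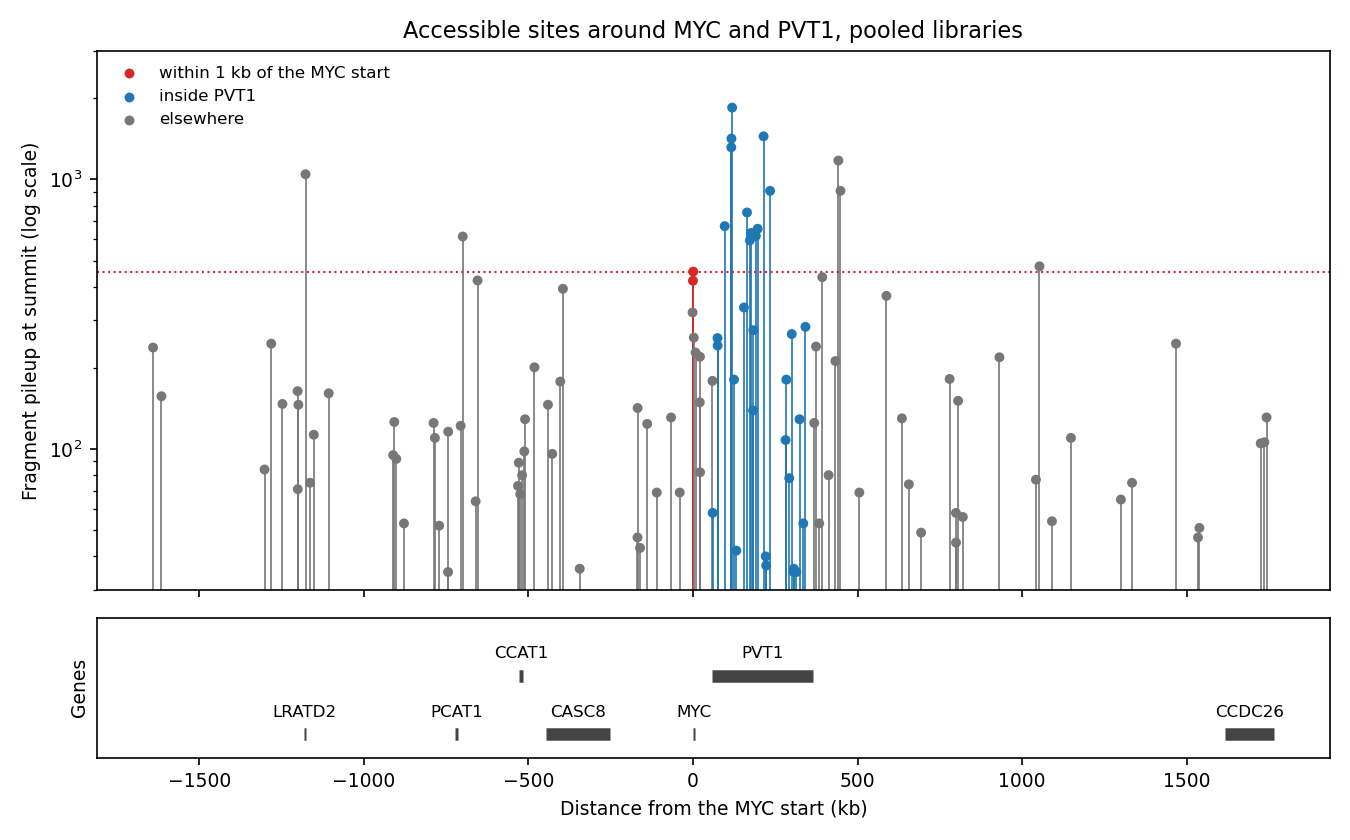
Fragment pileup (log scale) of each summit in the window against its distance from the MYC start in kb, with selected genes drawn as bars underneath; red marks summits within 1 kb of the MYC start, blue those inside PVT1, and the dotted line the highest pileup at the MYC start, 455. The tallest cluster is the run of blue points between 96.3 and 234 kb, and 16 summits lie above the dotted line.

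PVT1 held the strongest accumulation of fragments in the window. The gene spans chr8:127794524-128101256 and begins 51.6 kb past the end of MYC. It contained 31 summits in 27 intervals, which was 27.0% of the window's summits in 8.76% of its length. Its own start carried only a moderate site, with 5.88-fold enrichment and a pileup of 179 (154 to 207) at the summit 23 bp before the start. Of the 5737 lncRNA genes with a summit near an end, 36.0% had a lower highest pileup there. The inside of the gene differed from its start.

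Of the 16 summits in the window with a pileup above the 455 fragments of the MYC start, 11 lay in PVT1, between 96.3 and 234 kb from the MYC start. The comparison with the MYC start was chosen after the values were seen. This stretch of 138 kb held 18 summits and 41.0% of the summed pileup of the window in 3.94% of its length. Because the stretch was bounded by these summits, its share is a description of where they lie.

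The highest pileup in PVT1 was 1846 (1763 to 1932), 4.06 times the highest at the MYC start, in the interval chr8:127853998-127854781. It lay 119 kb from the MYC start, and its enrichment was 7.37 over a local background of 250 fragments. A neighbouring interval, chr8:127851440-127852437, held summits with pileups of 1315 and 1417. At 214 kb from the MYC start, the interval chr8:127949454-127950275 had a pileup of 1445 (1371 to 1521) and the highest enrichment in PVT1, 14.7. Summits at 96.3 kb and 234 kb had enrichments of 14.3 and 14.02 with pileups of 671 and 907. All of these counting intervals lay above that of the MYC start.

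By number of summits, 6 of 18303 lncRNA genes exceeded PVT1. Per length, PVT1 had 10.1 summits per 100 kb, against a median of 1.59 over the 990 lncRNA genes of at least 100 kb, and 24 of these had a higher density. In 100 kb bins along the autosomes, counted in intervals of at most 10 kb, the bins from 64.6 and from 165 kb after the MYC start had summed pileups of 7061 and 5344 fragments. Of 28729 such bins, 98.4% and 96.9% had a lower sum. For the bins just before and just after these, with 10 summits each, 86.9% and 73.5% had a lower sum. The 13 PVT1 summits outside the 138 kb stretch had a median pileup of 108, against 122 for all window summits outside it.

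**Figure D2:**
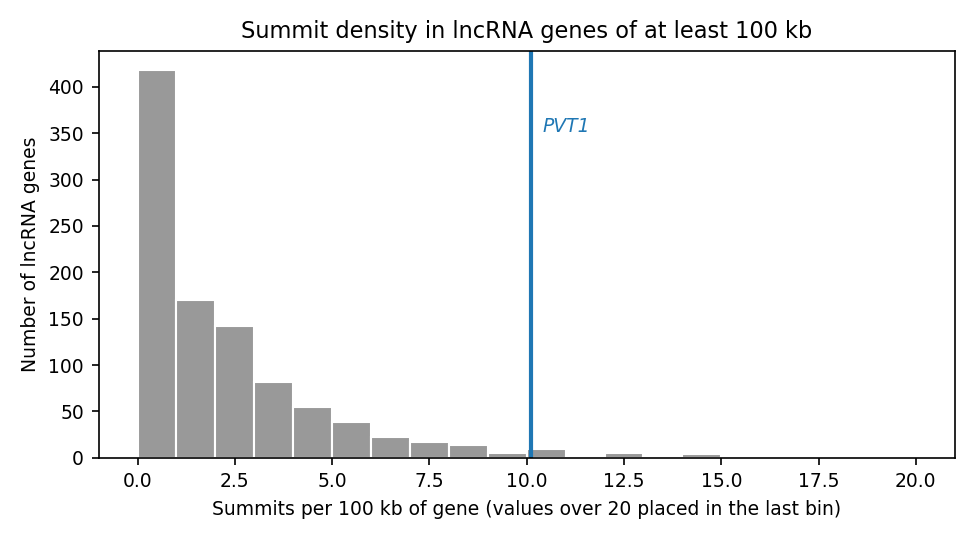
Histogram of summits per 100 kb of gene for the 990 lncRNA genes of at least 100 kb, with 2 genes above 20 placed in the last bin; the blue line marks PVT1. PVT1 sits at 10.1, far to the right of the median of 1.59, with 24 genes at a higher density.

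Strong single sites also lay far from MYC on both sides. The highest enrichment in the window, 16.8, belonged to a summit 1052 kb after the MYC start with a pileup of 476, and the nearest gene was the uncharacterised locus LOC124902021 at 12.04 kb. Next came a summit at the upper coordinate of LRATD2, a protein-coding gene of little-known function. It lay 1177 kb before MYC, with 16.4-fold enrichment and a pileup of 1045. Inside the lncRNA locus LOC124902020, summits at 442 and 448 kb after the MYC start had enrichments of 12.8 and 15.8 and pileups of 1175 and 907. A summit at 393 kb, 22.1 kb from MIR1208, had an enrichment of 12.1. Of the 10 highest enrichments in the window, 3 lay in PVT1 and the last 2 to be named lay before MYC. One lay 654 kb before it, where PCAT2 and PRNCR1 overlap, with 14.7-fold enrichment and a pileup of 422. The other lay 395 kb before it, where CASC8 and CASC21 overlap, with 13.2 and 393.

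Of 16 named genes of the MYC region found in the gene table, 5 of them microRNA genes, 4 had a summit no more than 1000 bp from an end, where 31.3% of all lncRNA genes and 65.7% of protein-coding genes had one. Besides LRATD2 these were CASC11, with 3.56, MIR1204, with 1.93, and MIR1207, with 1.69. None was found near the ends of the lncRNA genes CCAT1, CASC8, CASC19, CASC21, PCAT1, PCAT2, PRNCR1 and CCDC26, of the POU5F1 retrogene POU5F1B, or of MIR1205, MIR1206 and MIR1208. CCAT1, which is transcribed from an enhancer region active in colorectal cancer, had 2 summits inside, with pileups of at most 80.

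MYCN, the family member of the developing nervous system and of neuroblastoma, was the least accessible. Only 4 summits lay within the gene at chr2:15940550-15947004 or 50 kb of it, none inside the gene, and 17.7% of protein-coding genes had fewer. The strongest had 4.36-fold enrichment and a pileup of 92, at 28.2 kb before the start. The summit nearest the start lay 677 bp before it with 2.67-fold enrichment and a pileup of 56 (42.3 to 72.7). In the authors' deposited table its −log10 q was 9.04. A pileup that low was rare among genes with a site, since 5.94% of the 13157 were lower. All 4 summits had the genome-wide background.

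The 250 bases before the MYCN start (RefSeq, GRCh38.p14, plus strand, chr2:15940300-15940549) lay outside every called interval. They are shown because an E2F-type motif stands in this uncalled stretch, although a called summit lay 677 bp before the start. Capitals mark the match to TTTNGCGC on both strands, where 2 matches overlap.
MYCN: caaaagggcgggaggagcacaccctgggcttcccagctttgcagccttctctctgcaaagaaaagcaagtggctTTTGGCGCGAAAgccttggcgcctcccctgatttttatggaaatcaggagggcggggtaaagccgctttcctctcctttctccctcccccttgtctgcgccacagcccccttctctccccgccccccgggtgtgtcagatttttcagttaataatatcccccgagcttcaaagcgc
This motif, the sequence bound by E2F factors, was found in 1.49% of 34943 promoters of the same length.

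MYCL, first described in lung cancer, had a site at its start of about the size seen at MYC. The gene lies on the minus strand at chr1:39895428-39901917. The start summit, 82 bp upstream, had 7.99-fold enrichment and a pileup of 405 (367 to 446), and this counting interval overlapped that of the MYC start. A second summit 4.54 kb downstream, inside the gene, had a pileup of 120. The strongest site of the locus lay away from any start. At 32.9 kb upstream, in the interval chr1:39934308-39935089, the enrichment was 12.7 and the pileup 1444, while the nearest gene, the lipid transporter gene MFSD2A, was 20.4 kb away. The summit at the ends of TRIT1, a transfer RNA modifying enzyme gene, and of MYCL-AS1 had 8.85 and 362. All 250 bases before the MYCL start (chr1:39901918-39902167, minus strand) were inside the called interval. They are shown as the counterpart to MYCN, with GC boxes (GGGCGG, both strands) in capitals.
MYCL: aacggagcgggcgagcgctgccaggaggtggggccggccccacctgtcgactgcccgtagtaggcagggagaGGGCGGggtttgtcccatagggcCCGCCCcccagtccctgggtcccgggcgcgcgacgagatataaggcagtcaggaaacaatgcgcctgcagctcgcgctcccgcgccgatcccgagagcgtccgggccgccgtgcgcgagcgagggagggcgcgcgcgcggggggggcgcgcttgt
GC boxes were found in 42.5% of the promoters, and 74.4% of these bases were G or C, against 57.2% in the MYCN stretch. The MYCN stretch also held GC boxes, at 245, 127 and 58 bases before its start, which were left in lower case. GC boxes therefore did not set the MYCL stretch apart from that of MYCN.

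MAX, the obligate partner of the whole network, had a strong start site. The gene lies on the minus strand at chr14:65006101-65102695. Its start summit, in the interval chr14:65102130-65103205, had 12.4-fold enrichment and a pileup of 1606 (1528 to 1687). That is 3.53 times the highest pileup at the MYC start, and the intervals did not overlap. Of the 13 summits of the locus, 11 lay away from any listed start, with pileups of at most 219. The other strong site, with 15.2 and 1432, was the start of FNTB, the gene of a farnesyltransferase subunit, which overlaps MAX. Of the 13157 protein-coding genes, 54.9% had a lower highest enrichment at an end than MAX and 79.8% a lower highest pileup.

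**Figure D3:**
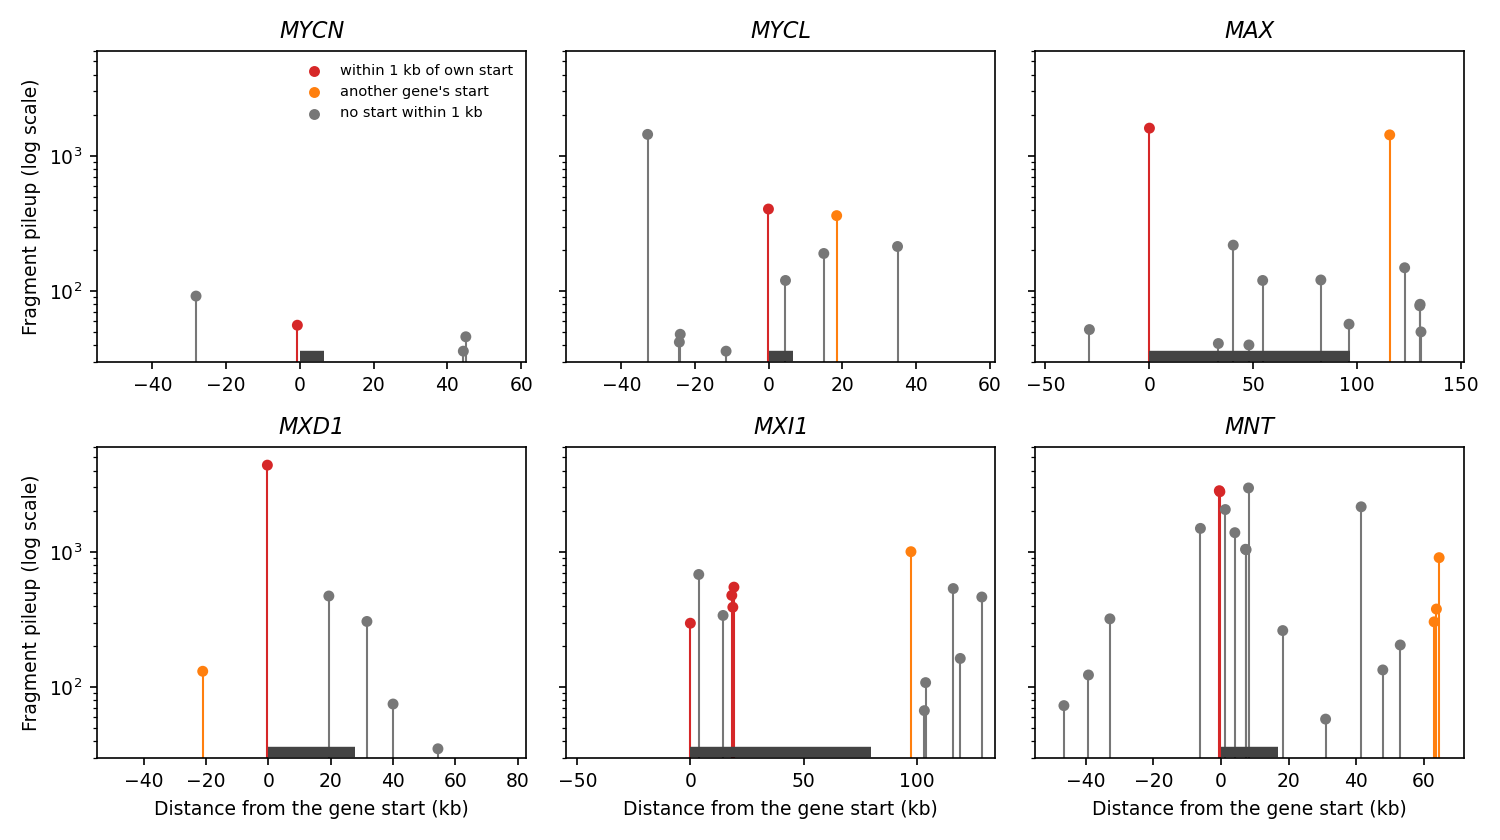
Fragment pileup (log scale) of each summit against distance from the gene start in kb, in the direction of transcription, for 6 of the 8 genes; the dark bar is the gene, red marks summits within 1 kb of a listed start of that gene, orange those at another gene's start and grey the others. MYCN stays at or below 92, while the red points reach 1606 at MAX, 2837 at MNT and 4383 at MXD1.

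By pileup, 2 of the 3 antagonists, MXD1 and MNT, had the highest start sites of the family. MXD1, a repressor that rises as cells stop dividing and differentiate, had 15.4-fold enrichment and a pileup of 4383 (4254 to 4515) in the interval chr2:69914298-69915311, with the summit 326 bp upstream of the start. This was 9.63 times the highest pileup at the MYC start. Only 84 of the 13157 protein-coding genes with a site had a higher pileup at an end. By enrichment MXD1 stood out less, since 2588 of these genes were higher at an end and 80.3% were lower. The local background at the MXD1 start summit was raised to 285 fragments, against the genome-wide level of 20.3. A second summit inside MXD1, 19.4 kb downstream, had 12.2-fold enrichment and a pileup of 472. In number, the locus had 6 summits, and 30.6% of protein-coding genes had fewer. The bases before its start (chr2:69914859-69915108, plus strand) were all inside the interval. They are shown because they belong to the strongest start of the family, with CCAAT boxes (CCAAT, both strands) in capitals.
MXD1: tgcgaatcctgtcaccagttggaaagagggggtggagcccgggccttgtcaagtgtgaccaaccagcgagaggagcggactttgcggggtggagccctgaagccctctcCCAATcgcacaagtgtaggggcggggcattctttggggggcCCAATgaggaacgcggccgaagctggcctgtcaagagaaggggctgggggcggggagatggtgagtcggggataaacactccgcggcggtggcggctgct
CCAAT boxes were found in 32.0% of the promoters, and the E-box letters CACGTG were not among these bases.

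MNT, the antagonist present in both dividing and resting cells, had several separate intervals over a raised local background in place of a single sharp peak. The gene lies on the minus strand at chr17:2384073-2401060. Upstream of its start, 2 summits at 312 and 475 bp had pileups of 2787 and 2837 (2734 to 2943) and enrichments of 6.29 and 6.41. Inside the gene, 5 summits in 3 intervals had pileups from 1039 to 2972, the highest 8.16 kb downstream with an enrichment of 9.80. The local background was raised 14.9 to 29.7 times from the start through these summits. In enrichment 23.7% of protein-coding genes with a site were lower than MNT at an end, whereas in pileup 95.01% were lower.

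MNT was also the member with most summits within 50 kb after PVT1, with 19, and 91.0% of protein-coding genes had fewer. Its window included the starts of TSR1 and SGSM2, with an enrichment of up to 9.99, and a site inside SGSM2, a gene for a regulator of small GTPases, with 13.9 and 2156. The 250 bases before the MNT start (chr17:2401061-2401310, minus strand) were all inside the called interval. They are shown because they alone among the 9 listed promoters of 6 members held the canonical E-box CACGTG, the letters bound by MYC and MAX dimers, which stands in capitals 193 bases before the start.
MNT: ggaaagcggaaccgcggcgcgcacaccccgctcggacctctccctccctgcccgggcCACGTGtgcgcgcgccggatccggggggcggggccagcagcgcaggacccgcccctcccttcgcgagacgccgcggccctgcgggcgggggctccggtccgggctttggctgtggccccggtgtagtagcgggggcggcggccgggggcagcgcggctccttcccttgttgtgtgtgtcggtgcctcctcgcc
The same letters, which read alike on both strands, were found in 6.32% of the 34943 promoters. A match to these letters is a description and not a measured binding site.

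MXI1, another SIN3-recruiting antagonist, had several moderate sites in place of a single strong one. The gene at chr10:110207605-110287365 has 3 listed starts. The summit 40 bp upstream of the outermost start had 4.06-fold enrichment and a pileup of 297 (264 to 333). Around the innermost start, 18.4 kb further in, the interval chr10:110225704-110227496 held 3 summits with pileups of 477, 390 and 549. The highest pileup inside the gene, 681 with an enrichment of 9.25, lay 1.05 kb downstream of the middle start, in chr10:110210775-110211496. The summits of highest enrichment in the window lay past the far end of the gene. The start of SMNDC1, a splicing factor gene, had 13.9 and 1004, and 2 intergenic summits had 11.1 and 11.0 with pileups of 536 and 464.

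**Figure D4:**
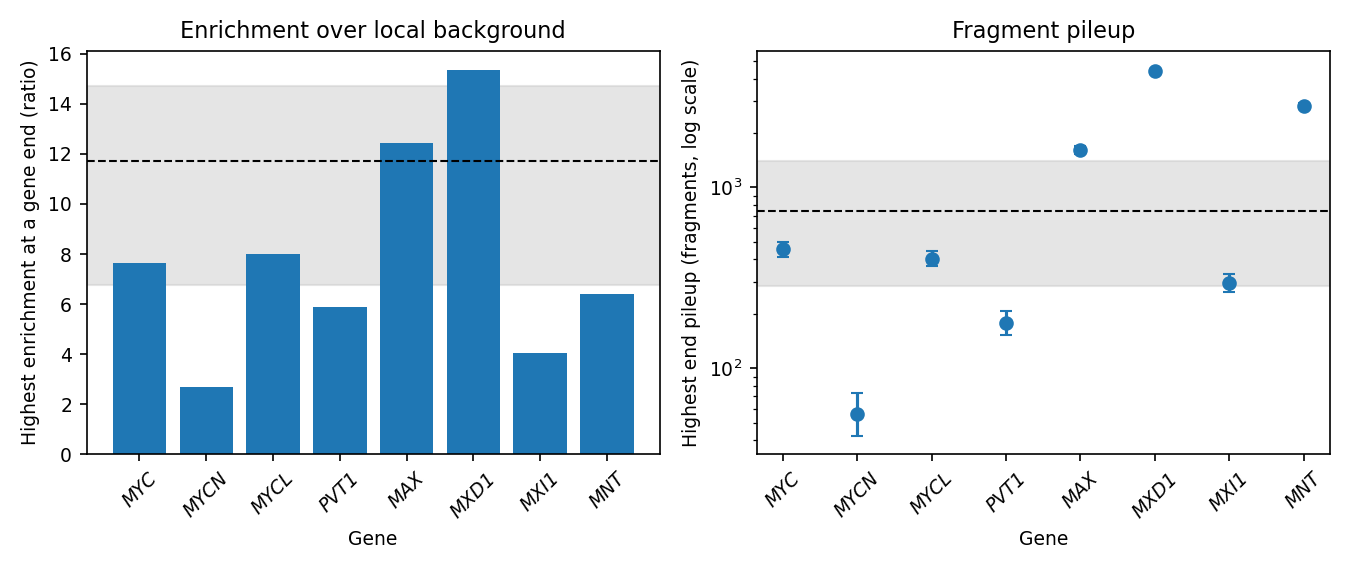
Highest enrichment (left) and highest fragment pileup (right, log scale, with exact 95% Poisson intervals) within 1000 bp of either end of each gene; the dashed line and grey band are the median and quartiles over the 13157 protein-coding genes with such a site, which PVT1 is not among. MXD1 and MAX stand above the dashed line in both panels, MNT only in pileup, and MYCN is lowest in both.

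Each of the 7 protein-coding members had a summit no more than 1000 bp from an end, against 65.7% of all protein-coding genes. At a −log10 q of at least 10 the count was 6, without MYCN, against 60.1%. The median of their highest enrichments was 7.64, below the 11.7 of all protein-coding genes with a site, and the median of their highest pileups was 455 against 745. The value of 7.64 was that of MYC, from the summit past its far end, and the MYC start reached only 4.98. In order of pileup at an end, MXD1 was first, followed by MNT, MAX, MYC, MYCL, MXI1, PVT1 and MYCN. At listed starts in place of gene ends, MXI1 reached 549, above the 405 of MYCL. It was also above the 455 at the lower coordinate of MYC, which is the MYC start. The counting intervals of MYC and MYCL overlapped, and those of the other neighbours in the order at gene ends did not. Replicate spread, which was not analysed here, may be larger than these intervals. Away from chromosome 8, 10 of 63 summits lay at a member's own start, 7 at the start of another gene and 46 at no listed start. The median pileup was 513, 378 and 128.5 in these classes.

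Other genes of the pathway were examined as 5 lists, with a site at an end of 52 of the 54 genes, a criterion that 65.7% of all protein-coding genes met. Within 500 bp the count was 46, against 58.5% of all, within 2500 bp it was 53, against 74.8%, and in intervals of at most 10 kb it was 52, against 65.4%. All 6 further network members had one. MXD4, a close relative of MXD1, was highest with 16.2 and a pileup of 4029. MLXIPL, the glucose-sensing factor of liver and fat, was lowest with 1.94 and 64, at a summit near its lower coordinate. Inside MLXIPL, however, the enrichment reached 14.03 and the pileup 771. Among 13 MYC cofactors all had one, and EP400, an ATPase of a remodelling complex, was highest at 16.9. Of 6 genes of the SIN3 corepressor 5 did, with HDAC1 highest at 14.3 and SIN3B lowest at 8.34. SIN3A had none at its annotated ends but 3 inside the gene, with a pileup of up to 4391.

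The genes acting on MYC protein stability had the highest median enrichment of the 5 lists, 16.1, with sites at all 11. SKP2, a ubiquitin ligase subunit, reached 19.7, and HUWE1, another ligase, had 2.78. Inside HUWE1 the enrichment reached 13.4 and the pileup 1923, so only its ends were weak. Of 18 textbook MYC targets 17 had a site, with a median of 12.3. DKC1, a pseudouridine synthase gene of ribosome and telomerase assembly, was highest at 17.8. E2F2, a cell cycle factor, was lowest at 3.28, with up to 6.84 inside the gene. CCND2, which encodes cyclin D2, had none at its ends and 2 inside the gene, of which the stronger had 5.27-fold enrichment. Next to the weak MYCN locus, the helicase gene DDX1 had 14.3 and a pileup of 931, whereas the noncoding MYCNOS and MYCNUT had no site at their ends. Near MYCL the highest was CAP1, an actin regulator gene, with 14.4, and the lowest MFSD2A with 4.27. The CAP1 summit lay near its lower coordinate and that of MFSD2A near its upper one. Starts and far ends were not separated in these lists.

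**Figure D5:**
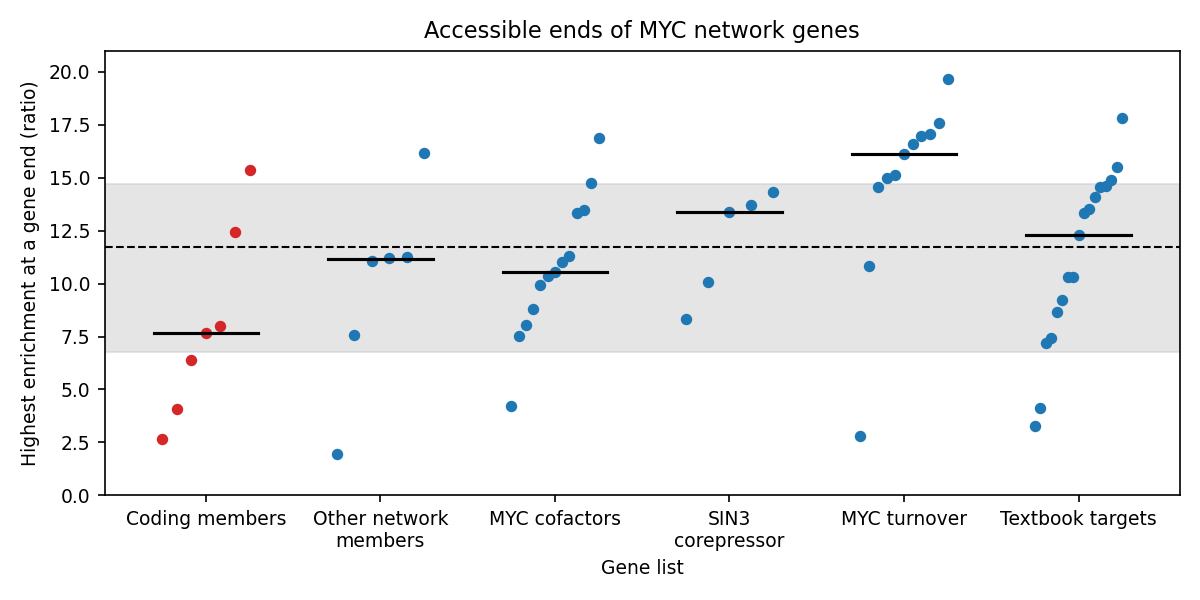
Highest enrichment within 1000 bp of a gene end for each gene with a site, by list; short black lines are list medians, and the dashed line and grey band the median and quartiles over all protein-coding genes with a site. The coding members have the lowest median, 7.64, and the turnover list the highest, 16.1.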

How the data were processed

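ATAC-seq of 12 HT1080 libraries was deposited as 1 peak list with no header and no column for a library. Per the submitters' processing notes, fastp 0.20.0, Bowtie2 2.4.3, deepTools 3.5.0, SAMtools and MACS2 2.2.7.1 were used with hg38; call options, filters and pooling are not given in the sources used here. The deposited columns used were a score, an enrichment taken as a ratio over local background, and −log10 p and −log10 q, with summit offsets. Depth per library is unknown, and per-library columns set aside numbered 0.

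Pileup and background were solved from the deposited enrichment, (pileup + 1)/(background + 1), and p, an upper Poisson tail; no label states this model, but it gave whole pileups within 0.05 in 99.96% of lines and was tested on simulated data. Gene names and positions came from RefSeq (GRCh38.p14), and starts and promoter letters from its promoter table, which matched 6 of 8 members. No p-value was computed: the planned test between concentrations needs values per library. Python 3.11.15 with pandas 2.3.3 and scipy 1.17.1 was used. Members and lists were chosen with earlier results of these data known. Named were all members, their strongest summits, the 10 highest enrichments of the chromosome 8 window, and from each list the highest, the lowest and those without a site; 1 gene that this rule names is not reported here. Other genes (CASC11, CCAT1, KRT8, FN1 and genes next to a named summit) were named after their values were seen.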

Additional observations from a re-analysis of the deposited data

How the results depend on the processing

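No paired analysis was possible because the list is pooled and holds no value per library; for the same reason the fits with a replicate left out were not run. The 8 gene windows held 109 summits. With a flank of 10 kb they held 68 and with no flank 52; a flank of 100 kb, counting each interval once, a −log10 q of at least 10 and any interval overlap kept this total within 1.5 times. Single loci moved more: at a −log10 q of at least 10 MYCN went from 4 to 1 and MAX from 13 to 8, and with a flank of 100 kb MYC went from 9 to 15, MYCN from 4 to 7, MYCL from 9 to 16 and MXD1 from 6 to 13. The median over members of the highest enrichment at an end, 7.64, became 7.82 with a window of 500 bp, 7.82 at a −log10 q of at least 10, 7.20 at listed starts only (6 members, since MYC has no listed start) and 455 when measured as pileup. The pathway count of 52 ranged from 46 (500 bp window) to 53 (2500 bp window). The density of the chromosome 8 window stayed between 26.0 and 32.9 per Mb in the alternatives run.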

Other observations

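The 5 microRNA hairpins of the PVT1 region, MIR1204 to MIR1208, all lay outside the called intervals. MIR1207 was closest to a summit, at 328 bp, but that summit had a pileup of 35, the lowest in the whole list. The nearest summit to MIR1204, at 877 bp, had a pileup of 58, and that to MIR1205, at 2896 bp, a pileup of 37. MIR1206 and MIR1208 were 7722 and 2783 bp from the nearest summit. How the strong PVT1 sites vary with collagen concentration was not tested.

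The longest stretch of the chromosome 8 window without a summit ran for 313 kb, from 1615 to 1301 kb before the MYC start. Another of 196 kb followed between 1107 and 911 kb before it. After MYC the longest ran for 186 kb, from 1538 to 1725 kb. No protein-coding gene lay in any of the 3 stretches.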
